A study of Homo sapiens with 11 samples.

Results

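The cereblon ligase and proteins it destroys when bound by lenalidomide or related drugs were followed here through 10 genes, chosen by name: CRBN, DDB1, CUL4A, CUL4B and RBX1 for the ligase, and IKZF1, IKZF3, GSPT1, CSNK1A1 and ZFP91 for its drug-directed substrates. All 10 were found among the 14458 rows of the knockdown table. ZFP91 has no row among the 11062 of the overexpression table and is not analysed in that comparison, which leaves 9 members. All of the 10 and the 9 passed the filter on low values, and none was listed at 0 in any library.

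Cereblon, the product of CRBN, is the substrate receptor of a cullin-RING ubiquitin ligase. DDB1 joins the receptor to a cullin scaffold, CUL4A or CUL4B, and RBX1 brings in the enzyme charged with ubiquitin. Lenalidomide and pomalidomide bind cereblon and turn it toward proteins it would not otherwise mark, above all the lymphoid transcription factors IKZF1 and IKZF3, whose loss lowers IRF4 and MYC in myeloma cells. Loss of cereblon is a known route to resistance against these drugs, and the study's title concerns drug resistance in myeloma. The mRNA values below do not measure protein, and ubiquitination was not measured. Values per gene also do not separate transcript forms of CRBN or IKZF1.

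The cells were ARP1, an established human myeloma line recorded as IgA kappa. The overexpression arm had 3 libraries with the PCDH empty vector (EV, replicates 3 to 5) and 2 with PHF19 overexpression (OE), both made by lentivirus packaged in HEK293T cells. Sorting is named only for the PHF19-overexpressing cells, and the letters F (OE) and S (EV) in the descriptions follow the groups, so neither can be told apart from PHF19. Replicate numbers of EV and OE do not match. The knockdown arm had 3 scramble and 3 shRNA-PHF19 libraries, grouped by their titles because their genotype tag repeats the overexpression wording; the hairpin is not named. No group was treated with lenalidomide according to the labels. Nothing in the labels says whether replicates were separate cultures, so p-values measure the spread between these libraries, which may be technical. PHF19, an accessory subunit of Polycomb repressive complex 2, was 112.55, 151.69 and 122.95 in scramble and 75.22, 102.81 and 107.73 in shRNA libraries (log2 fold change -0.44, limma adjusted p = 0.147, and 0.0445 with the replicate number as a block). Without shRNA replicate 1 the PHF19 log2 fold change was -0.28 (adjusted p = 0.254). It was 111, 119 and 115 in EV and 227 and 213 in OE libraries (0.93, adjusted p = 0.0438), a call lost in 10 of 14 alternatives, among them the omission of either OE library. The authors' abundances are of FPKM type, scaled to gene length and depth, and their read depth is unknown.

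Of 11 listed plasma cell markers 9 were found in each table. The immunoglobulin genes IGKC and IGHA1 were in neither, so the IgA kappa record was not checked. Summed levels of the markers found were 1818 to 2035 in scramble and 1446 to 1868 in shRNA libraries. By limma 8 of the 9 were lower after knockdown, against 45.6% of all genes, and none passed (smallest adjusted p = 0.158). JCHAIN, the antibody joining chain, was the exception (601 ± 76.7 and 655 ± 81.0, SD, n = 3 each). In the overexpression table the marker sums were 2538 to 3542 in EV and 4358 and 11528 in OE libraries. TNFRSF17 and MZB1 were listed at 0 in EV replicates 3 and 4. JCHAIN, there named IGJ, averaged 1775 ± 142 in EV (n = 3) and 6230 ± 5101 in OE libraries (n = 2). In the knockdown table T cell markers reached at most 0.96 (2 of 6 listed were found), myeloid markers 1.71 (4 of 5) and fibroblast markers 0.44 (2 of 6). In the overexpression table no T cell marker was found. Myeloid markers reached 6.17 there (LYZ, in OE replicate 2, the only 1 of 5 found) and fibroblast markers 2.57 (2 of 6). Because RNA was measured in bulk, fewer cells of a kind and less RNA per cell cannot be told apart. Some libraries stood apart. EV replicate 5 differed at least 2-fold from EV replicates 3 and 4 in 14.1% and 10.8% of genes above 0 in both libraries compared, against 3.74% between replicates 3 and 4. shRNA replicate 1 differed so from replicates 2 and 3 in 5.63% and 5.02%, against 0.817% between replicates 2 and 3. For the members, PHF19, EZH2, MYC and IRF4, values without shRNA replicate 1 or EV replicate 5 are given where they moved by more than 1.5 times.

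In control cells the ligase was unevenly supplied with message. DDB1 was the most abundant member in scramble libraries at 125 ± 7.23 (SD, n = 3), CSNK1A1 and RBX1 followed at 99.4 ± 16.5 and 97.9 ± 18.0, and their ranges overlapped each other but not that of DDB1. GSPT1 at 59.9 ± 4.18 and CUL4A at 42.6 ± 2.76 came next, each clear of its neighbours. ZFP91 stood at 19.0 ± 2.69. The lowest 4, CUL4B (12.7 ± 2.57), IKZF3 (12.4 ± 1.401), CRBN (12.4 ± 1.39) and IKZF1 (11.7 ± 2.18), were not separable from their neighbours by range. CRBN lay close to the middle of all genes, with 50.5% of genes tested below its scramble mean, whereas 93.9% lay below DDB1.

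EV libraries gave a similar order. The SD relative to the mean was larger than in scramble libraries for DDB1, CUL4A and GSPT1. It was smaller for CSNK1A1, RBX1, CUL4B, CRBN, IKZF1 and IKZF3. DDB1 was 117 ± 26.4 (n = 3), followed by CSNK1A1 (82.0 ± 2.81), RBX1 (79.2 ± 13.8), CUL4A (55.4 ± 10.4) and GSPT1 (45.4 ± 10.4), which overlapped in range from 1 gene to the next. IKZF3 (24.5 ± 1.58), CUL4B (17.2 ± 1.76) and CRBN (12.7 ± 0.679) were each apart from the one above, and IKZF1 (11.9 ± 1.35) overlapped with CRBN. The tables were normalised separately, so the higher IKZF3 value in EV than in scramble libraries is given without a test.

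**Figure D1:**
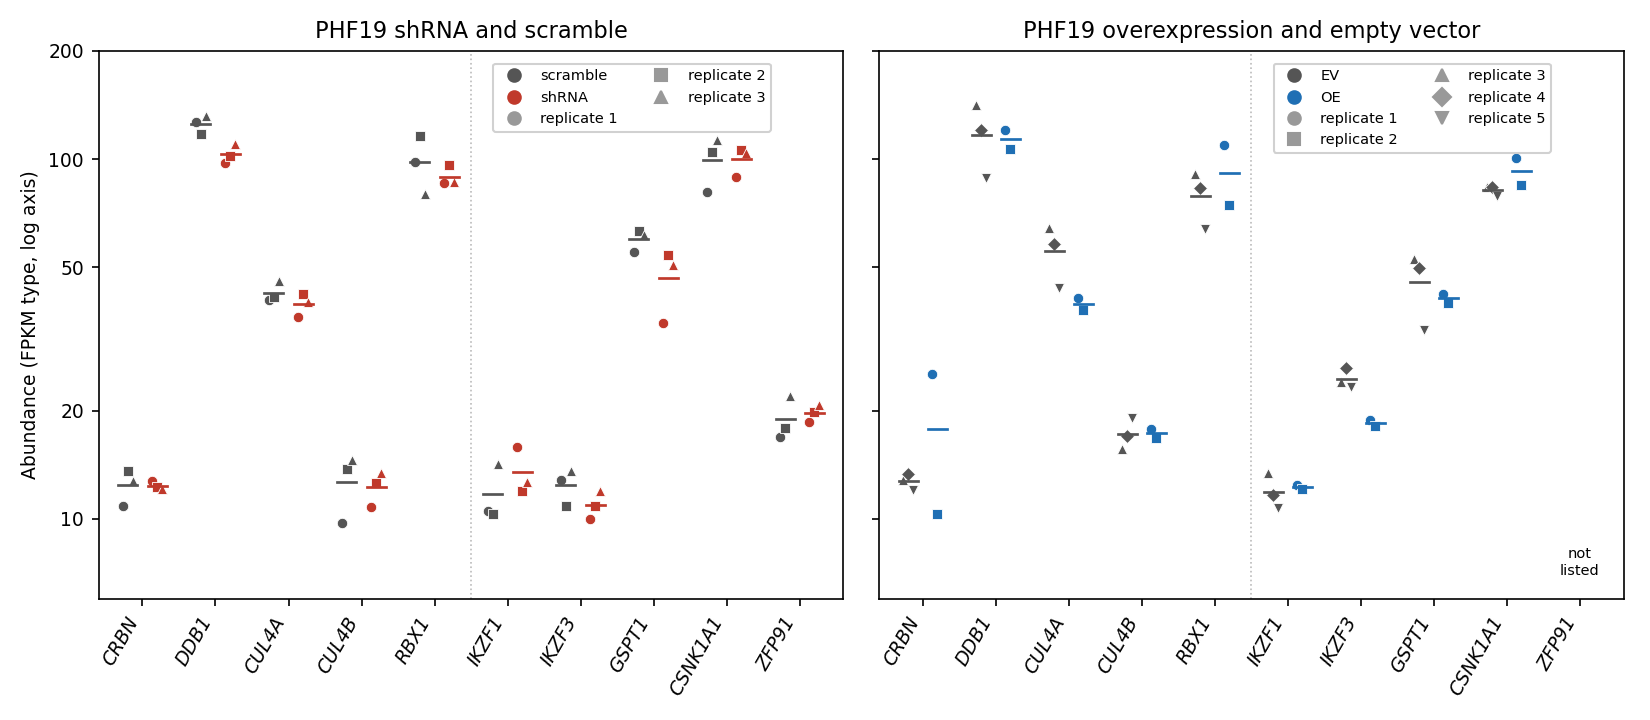
Abundance of each member in every library (FPKM type, log axis), with ligase genes left and substrates right of the dotted line, points for libraries and bars for group means. DDB1, RBX1 and CSNK1A1 lie between 63.9 and 141 and CRBN, IKZF1 and IKZF3 between 9.99 and 26.3 in all 11 libraries, with CRBN in OE replicate 1 (25.3) far above OE replicate 2 (10.3).

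The knockdown comparison asked whether the ligase or its substrates differ in message when PHF19 is targeted. None of the 10 members passed the test by limma, with adjusted p from 0.180 to 0.996, while 5.51% of all 10900 genes tested passed (4.24% higher and 1.28% lower, or 462 and 139 genes, and 377 and 206 after quantile normalisation). With the replicate number as a block 11.9% of all genes passed, 3.68% of all genes being lower, and again 0 members did. Unadjusted p was under 0.05 for 2 members, DDB1 and GSPT1, and for 24.1% of all genes. These 2, both lower in shRNA libraries, were also the only members whose groups did not overlap; 13.0% of all genes were lower without overlap and 32.0% did not overlap in either direction. The median log2 fold change was -0.07 over the members and 0.03 over all genes tested.

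CRBN was 10.87, 13.57 and 12.78 in scramble libraries and 12.71, 12.25 and 12.08 in shRNA libraries. The shRNA values all lay inside the scramble range. Its log2 fold change was 0.00 (SE 0.13, adjusted p = 0.996), and the 95% interval ran from 0.813-fold to 1.23-fold (limma, for 1 gene at a time).

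DDB1, the adaptor shared by all receptors of this ligase class, was 126.83, 117.65 and 131.91 in scramble and 97.25, 102.31 and 110.48 in shRNA libraries. Every shRNA library was below every scramble library. The log2 fold change was -0.28 (SE 0.12, adjusted p = 0.180), or 0.825-fold with an interval of 0.689 to 0.988. Without shRNA replicate 1 it was -0.24 (adjusted p = 0.243). With the replicate number as a block the adjusted p was 0.112.

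The scaffolds and the RING subunit overlapped between groups. CUL4A was 40.65, 41.30 and 45.73 in scramble and 36.52, 42.16 and 39.95 in shRNA libraries (log2 fold change -0.10, adjusted p = 0.622). CUL4B, its X-linked paralog, was 9.76, 13.77 and 14.56 against 10.79, 12.56 and 13.42 (-0.03, adjusted p = 0.923). RBX1 was 98.12, 115.80 and 79.80 against 85.66, 95.98 and 86.39 (-0.12, adjusted p = 0.667). All 5 ligase genes had log2 fold changes below 0, as did 45.6% of all genes tested, and the sign of CRBN, CUL4B or RBX1 turned when single libraries were left out. Without shRNA replicate 1 the log2 fold change was -0.021 for CRBN, -0.049 for CUL4A and 0.048 for CUL4B.

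Among the substrates GSPT1, the translation termination factor eRF3a, which is degraded under other cereblon-binding compounds rather than lenalidomide, had the largest difference. It was 55.16, 62.97 and 61.63 in scramble and 35.12, 54.20 and 50.92 in shRNA libraries. All shRNA values were lower, and shRNA replicate 1 was lowest by a wide margin. The log2 fold change was -0.37 (SE 0.16, adjusted p = 0.200), or 0.772-fold with an interval of 0.599 to 0.995. It came to -0.18 (adjusted p = 0.368) without shRNA replicate 1, and the adjusted p was 0.0684 with the replicate block.

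The Ikaros family members had fold changes of opposite sign, and neither passed. IKZF1, Ikaros, was 10.54, 10.34 and 14.22 in scramble and 15.88, 11.93 and 12.65 in shRNA libraries (log2 fold change 0.19, SE 0.17, adjusted p = 0.509). IKZF3, Aiolos, was 12.81, 10.87 and 13.59 against 9.99, 10.83 and 11.92 (-0.17, SE 0.14, adjusted p = 0.494). Both pairs of groups overlapped. IKZF1 came to 0.078 without shRNA replicate 1, 0.12 without scramble replicate 2 and 0.33 without scramble replicate 3, and IKZF3 to -0.26 and -0.11 without scramble replicates 2 and 3. The interval was 0.885-fold to 1.48-fold for IKZF1 and 0.715-fold to 1.10-fold for IKZF3.

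CSNK1A1, the casein kinase whose drug-induced loss underlies the lenalidomide response of myelodysplasia with a 5q deletion, was 81.01, 104.36 and 112.96 in scramble and 89.35, 106.15 and 103.74 in shRNA libraries. Its log2 fold change was 0.01 (adjusted p = 0.962) and became -0.02 after median-of-ratios scaling. ZFP91, a zinc finger ubiquitin ligase, was 16.93, 17.92 and 22.01 against 18.55, 19.87 and 20.76 (0.06, adjusted p = 0.814). For both, the groups overlapped throughout, and without shRNA replicate 1 the values were 0.091 for CSNK1A1 and 0.1034 for ZFP91. Retrocopies of CSNK1A1 and CUL4A and a ZFP91-CNTF readthrough are annotated in GENCODE 29, and reads shared with them would make these values uncertain.

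Libraries with the same replicate number deviated together in this arm, so ratios of shRNA to scramble by number are also given. DDB1 gave 0.767, 0.870 and 0.838 for numbers 1 to 3, GSPT1 0.637, 0.861 and 0.826, and IKZF3 0.780, 0.996 and 0.877. These 3 members were below 1 in all 3 pairs, as were 24.2% of all genes compared. IKZF1 gave 1.51, 1.15 and 0.890, and CRBN 1.17, 0.903 and 0.945, with no common direction.

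The p-values in the authors' deposited table differed widely from these. The authors' deposited table gives 4.58e-83 for GSPT1, 4.07e-66 for DDB1, 1.75e-08 for IKZF3, 7.7e-07 for IKZF1 and 0.00928 for CRBN, from a test the headers do not name. In the authors' deposited table p was under 0.05 for 7 of 10 members and for 71.5% of the genes tested here. CRBN is thus past 0.05 there with shRNA values that lie inside the scramble range.

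**Figure D2:**
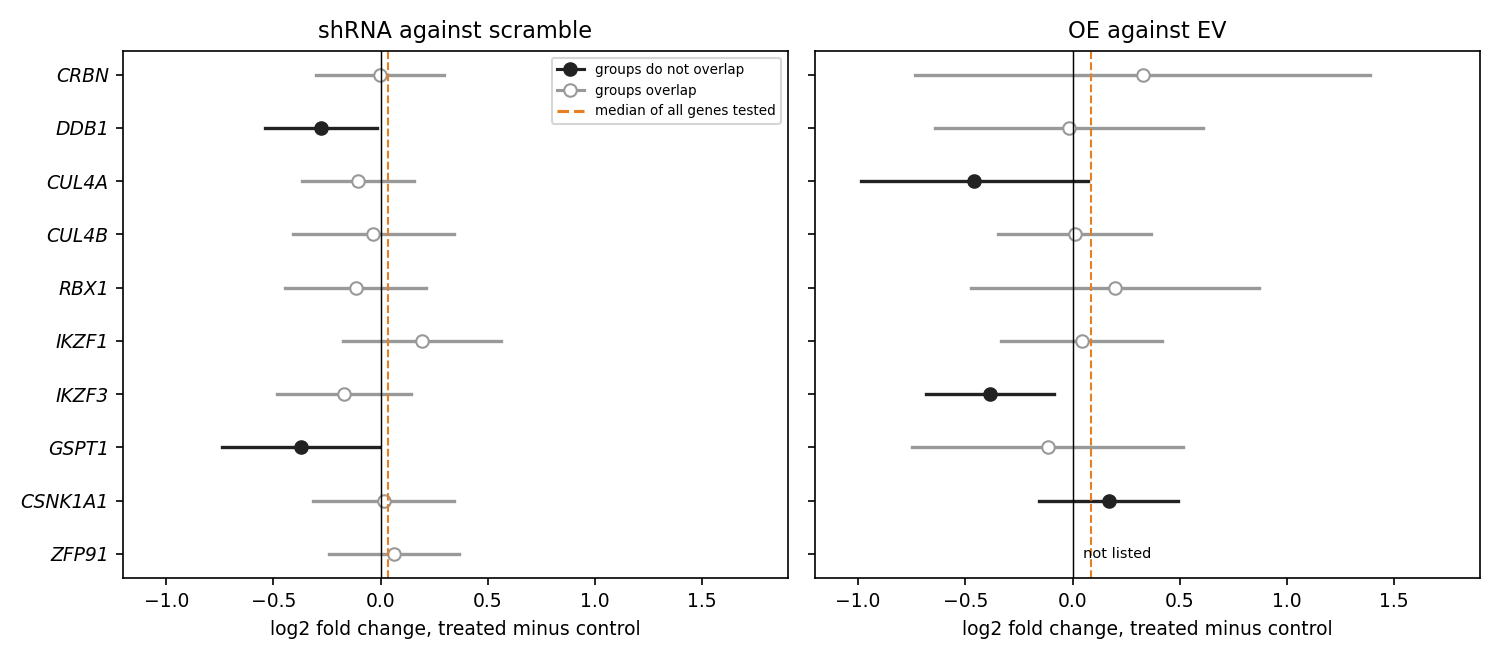
log2 fold change of each member with limma's 95% interval, shRNA minus scramble (left) and OE minus EV (right). Filled points mark genes whose groups do not overlap, and the dashed line is the median of all genes tested. DDB1 and GSPT1 lie lowest on the left, CUL4A and IKZF3 on the right, and the interval for CRBN on the right spans -0.73 to 1.39.

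The overexpression comparison asked the same of sorted PHF19-overexpressing cells. None of the 9 members passed by limma (adjusted p from 0.364 to 0.984), while 0.914% of the 10279 genes tested passed. IKZF3 alone had an unadjusted p under 0.05, as did 11.5% of all genes. Groups did not overlap for 3 members, IKZF3 and CUL4A lower and CSNK1A1 higher, against 34.2% of all genes (11.1% lower and 23.1% higher). The median log2 fold change was 0.01 over the members and 0.09 over all genes tested. Of the members 4 had log2 fold changes below 0, where 40.1% of all genes did. Among all genes 0.613% passed higher and 0.302% lower.

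IKZF3 was 23.97, 26.31 and 23.29 in EV replicates 3 to 5 and 18.87 and 18.18 in OE libraries. Both OE values were below every EV value. The log2 fold change was -0.39 (SE 0.11, unadjusted p = 0.0220, adjusted p = 0.364), or 0.766-fold with an interval of 0.623 to 0.941. It was -0.42 (adjusted p = 0.0925) without EV replicate 5. The authors' deposited table gives 0.0133 for IKZF3, the only member with a p under 0.05 there, against 12.2% of the genes tested here.

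IKZF1 did not share this pattern: it was 13.38, 11.64 and 10.71 in EV and 12.39 and 12.11 in OE libraries. The OE values lay inside the EV range. The log2 fold change was 0.04 (SE 0.14, adjusted p = 0.925), with an interval of 0.794-fold to 1.34-fold and a sign that turned after quantile normalisation (-0.07) and median-of-ratios scaling (-0.03) and without EV replicate 5 (-0.025).

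CUL4A was 64.25, 58.12 and 43.96 in EV replicates 3 to 5 and 41.09 and 38.11 in OE libraries. EV replicate 5 lay nearer to the OE values than to the other EV libraries. The log2 fold change was -0.46 (SE 0.20, adjusted p = 0.477), and -0.61 (adjusted p = 0.0687) without EV replicate 5. CUL4B was 15.60, 17.03 and 19.10 against 17.80 and 16.83 (0.01, adjusted p = 0.984), and it was 0.082 without EV replicate 5. Its sign turned after quantile normalisation (-0.12) and median-of-ratios scaling (-0.06).

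CRBN itself was 12.83, 13.37 and 12.02 in EV replicates 3 to 5, a narrow range, and 25.31 and 10.30 in OE replicates 1 and 2. The OE libraries fell on opposite sides of the EV libraries. They differed 2.46-fold, and a ratio at least this high between the same libraries was seen in 0.882% of the 9520 genes above 0 in both. The log2 fold change was 0.33 (SE 0.39, adjusted p = 0.775), -0.28 (adjusted p = 0.900) without OE replicate 1 and 0.94 (adjusted p = 0.306) without OE replicate 2. In the same OE replicate 1 the summed plasma cell markers were 11528, of which IGJ, the antibody joining chain, made up 9837. Its part in the CRBN value was not tested.

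DDB1 and GSPT1 varied more among EV than OE libraries, and RBX1 and CSNK1A1 more between the OE libraries. DDB1 was 141.09, 120.78 and 88.74 in EV and 120.29 and 106.82 in OE libraries (log2 fold change -0.02, adjusted p = 0.982). GSPT1 was 52.83, 49.87 and 33.54 against 42.16 and 39.93 (-0.12, adjusted p = 0.883), and -0.32 (adjusted p = 0.111) without EV replicate 5. RBX1 was 90.73, 82.99 and 63.86 against 109.08 and 74.32 (0.20, adjusted p = 0.788). EV replicate 5 was the lowest EV library for every member tested except CUL4B, for which it was the highest. Without EV replicate 5 the log2 fold change was -0.20 for DDB1 and 0.053 for RBX1. CSNK1A1 was 83.75, 83.41 and 78.71 against 100.60 and 84.48, with OE replicate 2 only just above the EV range (0.17, SE 0.12, adjusted p = 0.626).

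Ratios between partners in a library do not change when the library is rescaled. They were computed for 3 pairs of members in both arms, 6 comparisons, with exact two-sided permutation tests in which neither 3 against 3 nor 2 against 3 libraries can go below 0.1. The pairs were picked after values had been seen. IKZF1 to IKZF3 was 0.823, 0.951 and 1.05 in scramble and 1.59, 1.10 and 1.06 in shRNA libraries. The same ratio was 0.558, 0.442 and 0.460 in EV and 0.657 and 0.666 in OE libraries. In both arms every treated library was above every control library, by 1.31-fold (exact p = 0.1) and 1.37-fold (exact p = 0.2), each 0.4 after Benjamini-Hochberg adjustment over the 6, and scramble replicate 3 and shRNA replicate 3 were nearly level. The log2 difference after knockdown was 0.39, and 0.21 without shRNA replicate 1. The ratio was thus higher in the shRNA and in the OE libraries. With a floor of 0.1 these tests could not pass the threshold, so they do not decide about either difference. In the overexpression arm IKZF3 by itself did not overlap between groups, so the ratio there reuses that difference. Of single genes tested 32.0% did not overlap after knockdown and 34.2% with overexpression. The share for ratios of other gene pairs was not computed.

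CUL4A to CUL4B averaged 3.44 ± 0.636 in scramble and 3.24 ± 0.228 in shRNA libraries (exact p = 0.8), and 3.28 ± 0.916 in EV and 2.29 ± 0.0315 in OE libraries (n = 3 and 2, exact p = 0.3). EV replicate 5, at 2.30, lay between the OE values of 2.31 and 2.26. CRBN to DDB1 was 0.0993 ± 0.0150 in scramble and 0.120 ± 0.0107 in shRNA libraries (exact p = 0.2). In OE replicate 1 it was 0.210, above the EV values of 0.0910 to 0.135, and in OE replicate 2 it was 0.0964, within them (exact p = 0.6).

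**Figure D3:**
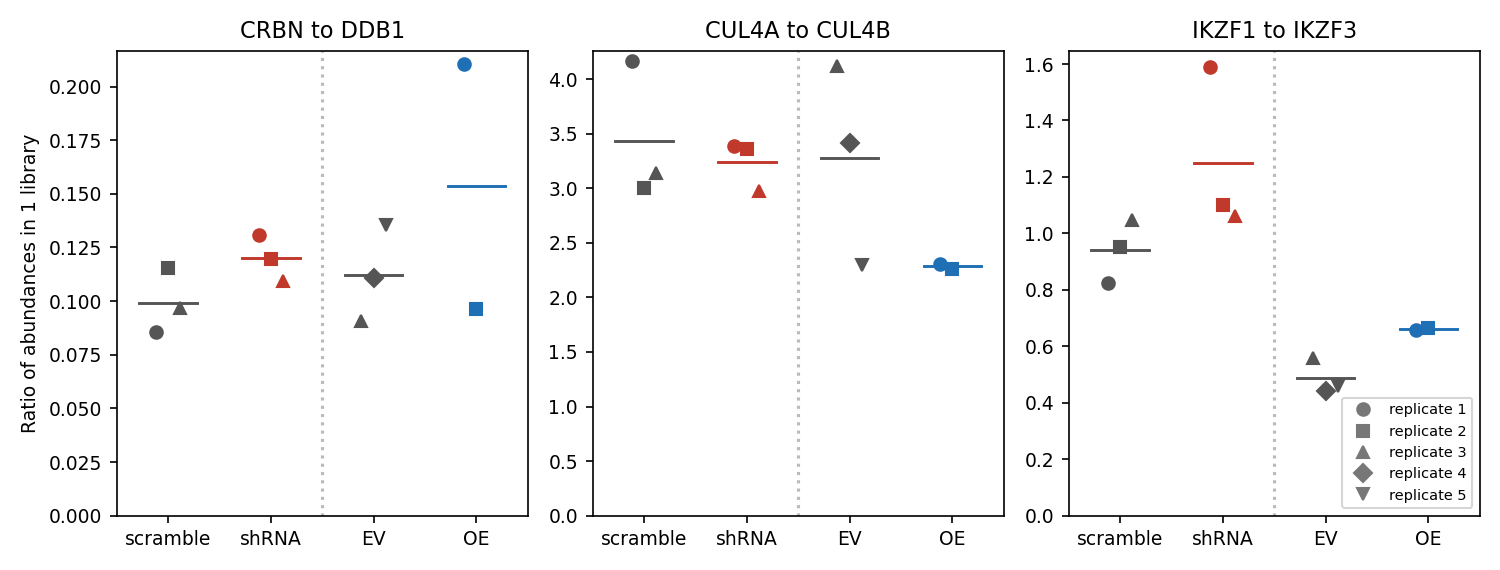
Ratio of abundances within each library for 3 pairs of members, with points for libraries and bars for group means; the dotted line separates the tables. IKZF1 to IKZF3 is higher in all 3 shRNA than in all 3 scramble libraries and higher in both OE than in all 3 EV libraries, while the other ratios overlap between groups.

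Genes that act with the ligase were counted in fixed lists. After knockdown, unadjusted p was under 0.05 for 24.1% of all genes tested, and limma called 4.24% higher and 1.28% lower. Cullin ligases are switched on by attachment of NEDD8 to the cullin and off by the COP9 signalosome. None of 12 neddylation genes passed limma after knockdown (2 at unadjusted p under 0.05, median -0.12): NAE1, a subunit of the NEDD8-activating enzyme, was 50.7 ± 2.93 in scramble and 37.9 ± 7.38 in shRNA libraries (n = 3 each, adjusted p = 0.124, and 0.0470 with the block), and UBE2M, the NEDD8-conjugating enzyme that works with RBX1, 161 ± 15.1 and 130 ± 11.4 (adjusted p = 0.182). None of 12 COP9 and cullin exchange genes passed (2 unadjusted, median -0.21). COPS7A was 31.2 ± 0.869 and 41.6 ± 5.22 (adjusted p = 0.0922), while COPS2 was 28.7 ± 4.397 and 21.1 ± 3.18 (adjusted p = 0.134, and 0.0408 with the block).

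None of 10 genes in the list of ubiquitin-activating and conjugating enzymes, which also held the deubiquitinase USP15, passed limma (2 unadjusted, median -0.14). Unadjusted p was under 0.05 for 24.1% of all genes. UBE2G1, which extends ubiquitin chains on drug-directed cereblon substrates, was 24.9 ± 1.70 and 17.8 ± 4.29 (adjusted p = 0.122). UBE2D4, of the chain-priming family, was 2.82 ± 0.276 and 4.61 ± 0.314 (adjusted p = 0.0558, and 0.0415 with the block). Other cullins held 2 of 6 genes that rose, where 4.24% of all genes did. CUL7 was 6.75, 9.07 and 9.22 in scramble and 20.21, 14.24 and 15.89 in shRNA libraries (log2 fold change 0.93, SE 0.17, adjusted p = 0.0198). CUL9, a p53-binding cullin, was 2.65, 3.44 and 4.53 against 7.70, 6.73 and 8.30 (0.93, SE 0.18, adjusted p = 0.0225). Both were well apart between groups, but neither passed without scramble replicate 1 or 2 or shRNA replicate 3, nor CUL7 without scramble replicate 3 (adjusted p 0.0508 to 0.0991).

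Other DDB1 substrate receptors and adaptors showed 0 of 26 past the threshold by limma (4 unadjusted, against 24.1% of all genes, median 0.13). FBXW5 was 66.9 ± 1.07 and 93.3 ± 13.9 (adjusted p = 0.0668, and 0.0374 with the block), DET1 2.70 ± 0.201 and 4.32 ± 0.901 (adjusted p = 0.1004), and WDTC1 passed with the block alone (0.58, adjusted p = 0.0379, against 0.121). Of 19 other reported cereblon neosubstrates tested, 1 rose (median 0.16), where 4.24% of all genes did. ZNF827, a zinc finger protein, was 7.20, 7.77 and 9.39 in scramble and 16.16, 12.77 and 13.08 in shRNA libraries (0.72, adjusted p = 0.0295). RNF166 joined it with the block (0.44, adjusted p = 0.0368, against 0.0872). ZNF827 did not pass when any 1 scramble library, shRNA replicate 2 or shRNA replicate 3 was left out (adjusted p 0.0536 to 0.118), nor with no filter (0.0566). IKZF2, Helios, was below the filter, at 0.11 to 0.21. None of 11 paralogs of members passed limma (1 unadjusted, median 0.06), the nearest being CSNK1E at 18.6 ± 2.05 and 23.1 ± 1.04 (adjusted p = 0.179) and CSNK1G3 (adjusted p = 0.426).

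Cereblon partners and endogenous substrates had 2 of 10 genes lower and 0 higher (median -0.26), where 1.28% of all genes were lower and 4.24% higher. GLUL, glutamine synthetase, an enzyme whose protein is a known endogenous cereblon substrate, was 4.79, 3.28 and 3.03 in scramble and 0.95, 2.02 and 1.89 in shRNA libraries (log2 fold change -0.85, SE 0.22, adjusted p = 0.0494). It did not pass when any 1 of the 6 libraries was left out (adjusted p 0.0595 to 0.173), and its call was lost in 10 of 14 alternatives in all, which also include plain limma variances (0.0527), no filter (0.0858) and pseudocounts of 0.1 (0.0566) and 0.5 (0.0526). HSP90AA1, a stress-inducible chaperone, fell from 224 ± 13.8 to 144 ± 27.3 (-0.65, adjusted p = 0.0413) and did not pass when any 1 scramble library or shRNA replicate 3 was left out (adjusted p 0.0858 to 0.158), with plain limma variances (0.0574) or with no filter (0.0731). SLC16A1, a lactate transporter whose maturation cereblon assists, passed with the block (-0.43, adjusted p = 0.0416, against 0.0937).

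Downstream of IKZF1 and IKZF3, MYC was 261.59, 232.57 and 248.21 in scramble and 134.27, 192.86 and 203.67 in shRNA libraries (log2 fold change -0.50, adjusted p = 0.103, and -0.32, adjusted p = 0.138, without shRNA replicate 1). In the overexpression arm it was 182, 198 and 182 in EV and 237 and 252 in OE libraries (0.38, adjusted p = 0.326). IRF4 was 172 ± 44.7 and 143 ± 22.4 after knockdown (log2 fold change -0.25, adjusted p = 0.474, and -0.11 without shRNA replicate 1) and 208 ± 25.7 and 255 ± 9.21 with overexpression (n = 3 and 2, adjusted p = 0.502). Values of MYC did not overlap between groups in either arm, and those of IRF4 did not overlap in the overexpression arm. Of all genes tested 32.0% did not overlap after knockdown and 34.2% with overexpression. Unadjusted p for MYC by limma was 0.0124 and 0.0142, where 24.1% and 11.5% of all genes were under 0.05. MYC passed limma in 1 of 15 alternatives after knockdown (adjusted p = 0.0498) and 1 of 14 with overexpression (0.0417). EZH2 was 57.7 ± 3.08 and 52.8 ± 8.98 after knockdown (-0.14, adjusted p = 0.588, and -0.0024 without shRNA replicate 1), and 54.5 ± 7.51 and 52.5 ± 2.54 with overexpression (-0.045, adjusted p = 0.928, and -0.16 without EV replicate 5).

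**Figure D4:**
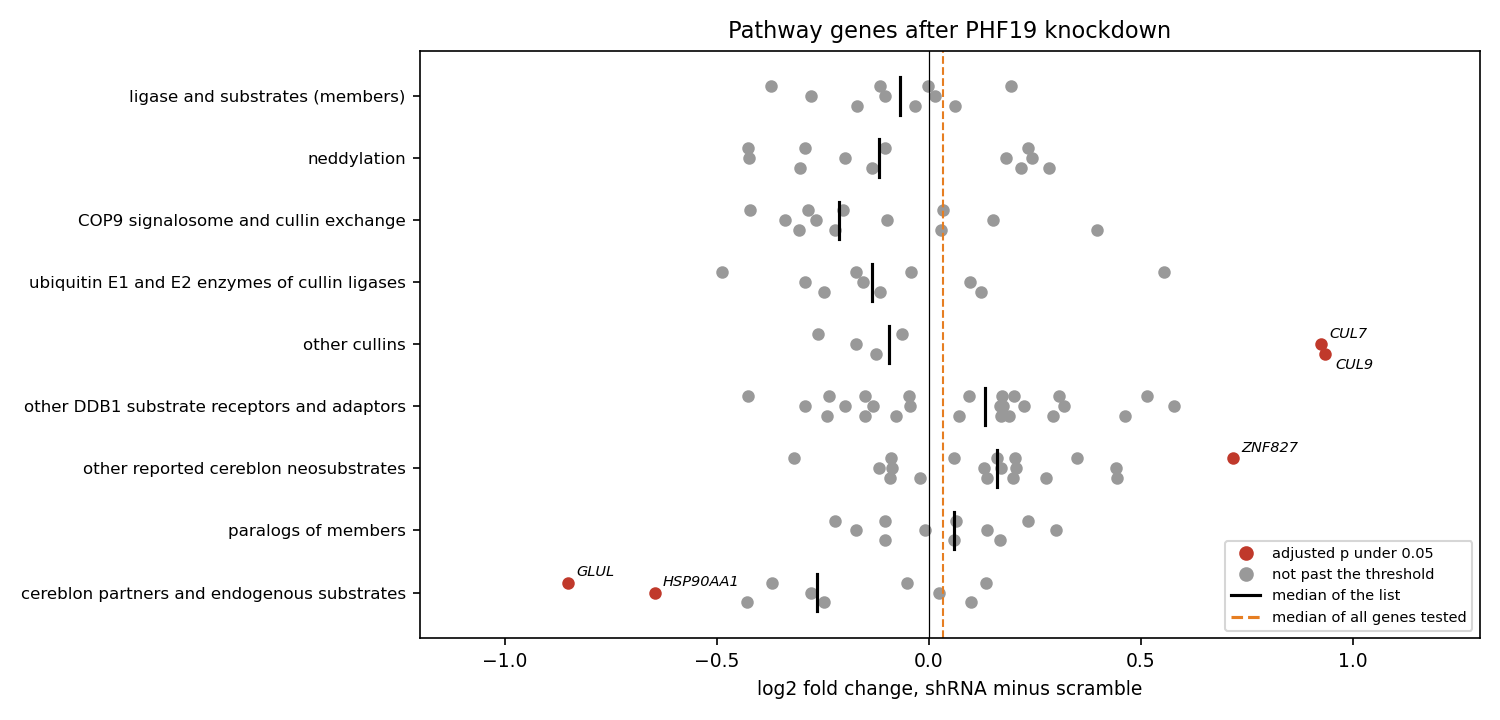
log2 fold change, shRNA minus scramble, of the members and of genes in 8 pathway lists, 1 point per gene, with the median of each list and of all genes tested (dashed). The 10 members lie between -0.37 and 0.19 with none past the threshold, and the 5 genes past it are CUL7, CUL9, ZNF827, GLUL and HSP90AA1.

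With overexpression 0 genes of these lists passed limma, where 0.914% of all genes tested did. Unadjusted p was under 0.05 for 1 of 10 neddylation genes, 2 of 12 COP9 genes, 2 of 26 receptors and adaptors, and 1 of 9 partners. It was so for 0 of the 7 ubiquitin-activating and conjugating enzymes, 6 cullins, 18 neosubstrates and 10 paralogs. Among all genes tested the share was 11.5%. Genes listed at 0 in a library were among those counted: 1 neddylation gene, 3 enzymes, 1 cullin, 3 receptors or adaptors, 4 neosubstrates, 3 paralogs and 2 partners. A 0 beside higher values widened the spread (CDC34, SE 1.87). COPS2 was 46.9 ± 10.1 in EV and 26.5 ± 3.82 in OE libraries (n = 3 and 2, log2 fold change -0.79, adjusted p = 0.363), and COPS7A 23.6 ± 3.70 and 35.0 ± 0.368 (0.56, adjusted p = 0.364). PHIP, a DDB1-associated receptor, was 16.54, 14.85 and 12.36 in EV and 7.28 and 6.59 in OE libraries (-0.97, SE 0.17, adjusted p = 0.199), and FBXW5 46.7 ± 3.34 and 63.5 ± 5.51 (0.43, adjusted p = 0.354). SENP8, which removes NEDD8, was 2.49 ± 0.268 and 3.97 ± 0.660 (adjusted p = 0.412), and MEIS2, a homeobox factor reported as an endogenous cereblon substrate, 3.66 ± 0.371 and 2.29 ± 0.0846 (adjusted p = 0.384). ARID2 (adjusted p = 0.465), WEE1 (0.525), IKZF5 (0.553), UBE2R2 (0.597), CUL5 (0.595) and CSNK1D (0.637) were the next by list. CUL7 was listed at 10.8, 8.46 and 0 in EV and 16.9 and 19.1 in OE libraries, so no fold is given.

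The genes whose pattern over the 6 knockdown libraries lay nearest to CRBN, by root mean square distance of centred log2 values among 10898 genes, were HOXB7 (0.0329), SMYD3 (0.0373), LUC7L (0.0380), ACADM (0.0384) and APOBEC3F (0.0389). HOXB7 was 20.52, 25.71 and 23.57 in scramble and 22.43, 22.95 and 22.69 in shRNA libraries, with the same dip in scramble replicate 1 as CRBN. Of the other members CSNK1A1 stood at rank 1138, CUL4A at 1159, ZFP91 at 1265 and CUL4B at 1770. RBX1 was at rank 3820, DDB1, the direct partner of cereblon, at 4483 and IKZF3 at 4516. IKZF1 was at rank 4846 and GSPT1 at 7924. CRBN varied little, and this distance is small for any gene that varies little, so the ranks do not by themselves show a shared pattern.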

How the data were processed

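RNA-seq of 11 ARP1 libraries was read from 2 deposited tables of abundances taken as FPKM, already scaled by the authors to gene length and depth; per the file headers no unit is named, and RPKM or TPM cannot be told apart from it. Reads were aligned with TopHat to hg19, per the submitters' processing notes; no source used here names the quantifier or annotation. Each deposited table also holds the authors' p-value per gene, per the file headers. The tables carry no counts, so neither depth nor counting error is known, and coordinates are left out because the reference is of another build.

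Each arm was fitted in its own table with limma 3.58.1 (R 4.3.3), trend and robust variances, on log2(value + 1), keeping genes that reached 1 in a number of libraries equal to the smaller group; p-values were adjusted by Benjamini-Hochberg across every tested gene, and 0.05 was the threshold. A fold change is on the log2(value + 1) scale and understates low genes. Python 3.11.15 made tables and plots. The fit was tested on simulated data with independent noise and capped spreads. That test did not cover the joint deviation of equal replicate numbers or the libraries that stood apart. The members and lists were chosen with earlier results of these data known. Named genes were all members, PHF19, EZH2, IRF4, MYC, per list up to 4 genes past the threshold or otherwise the 2 of smallest adjusted p, and the 5 nearest CRBN; genes named for passing with the block alone (WDTC1, RNF166, SLC16A1), and IKZF2, were added after values were seen. Of the genes this rule would name, DCUN1D2, CDC34 and PRKAA1 were listed at 0 in an overexpression arm library and are not described. Other genes counted in the lists were also at 0 in a library of that arm.

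Scramble and shRNA libraries of equal number deviated together from their group means (r across genes 0.341, 0.270 and 0.273). For libraries of unequal number r was -0.277 to 0.0936. The main fit ignored this pairing, which no label states. The replicate number entered only the alternative fit with the block and the ratios by number.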

Additional observations from a re-analysis of the deposited data

How the results depend on the processing

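The finding of 0 members past the threshold held under every alternative in both arms except library weights, where GSPT1 (-0.28, adjusted p = 0.0406; 1 member) passed after knockdown and CUL4A (-0.55, adjusted p = 0.0298) and IKZF3 (-0.47, adjusted p = 0.0272; 2 members) with overexpression. Weights also raised all calls to 3161 and 1729. Over all genes the knockdown count of 601 (462 higher, 139 lower) was 583 after quantile normalisation (377 and 206), 613 after median-of-ratios scaling (417 and 196), 269 with no filter, 1295 with the replicate block, and 54 to 629 without single libraries. The overexpression count of 94 became 36 with a filter at 5, 61 with a pseudocount of 0.1, 0 without genes listed at 0 (1201 at unadjusted p under 0.05), and 107 to 350 without single libraries; where 1 OE library remained it was assumed to vary like the others. Quantile normalisation moved the median of all genes in that arm from 0.09 to -0.04. The replicate block changed the call of no member, and beside the calls named with it none other among named genes. The causes were not tested.

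Values near 0 changed sign when single libraries were left out. After knockdown the ranges were -0.087 to 0.061 for CRBN, -0.13 to 0.11 for CSNK1A1, -0.20 to 0.067 for CUL4B, -0.25 to 0.012 for RBX1, -0.011 to 0.17 for ZFP91 and -0.16 to 0.075 for the CUL4A to CUL4B difference. With overexpression they were -0.28 to 0.94 for CRBN, -0.056 to 0.082 for CUL4B, -0.2 to 0.13 for DDB1, -0.32 to 0.0039 for GSPT1, -0.025 to 0.12 for IKZF1, -0.075 to 0.47 for RBX1, -0.16 to 0.029 for EZH2 and -0.20 to 0.92 for CRBN to DDB1. Other settings turned CSNK1A1 (-0.022, median-of-ratios scaling), IKZF3 (0.012) and IRF4 (0.12, both with library weights) after knockdown, and with overexpression CUL4B (-0.12 and -0.064) and IKZF1 (-0.072 and -0.029) after quantile normalisation and median-of-ratios scaling.

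PHF19 passed with overexpression in 4 of 14 alternatives. Depth is unknown, so no detection limit was set.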
